A study of Mus musculus with 20 samples.

Results

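A set of 36 genes was read in mouse epidermis at embryonic day 9 (E9) and was low at E13, in epidermis with and without ΔNp63. Counts were scaled to each library's total and are given as CPM (counts per 1000000), and a gene belonged to the set when its lowest E9 library reached 10 CPM and was at least 4 times the highest of the 6 E13 epidermal libraries. Of the 23432 genes counted, 8060 reached the E9 minimum and 47 of them also met the ratio. Of these, 11 (Msx1, Msx2, Cdx1, Lin28a, Lin28b, Trim71, Sall1, Sall4, Arid3b, Ptgis and Chrdl1) were left out by name, which left the 36 genes. The genes were thus chosen by their E9 and E13 epidermal CPM, and the difference between the ages is given below as a description, with no test. The rule also capped the KO and the Het values at E13, so a gene high in either genotype could not belong to the set. KO against Het epidermis is a different contrast, and its values for the 36 genes come from a fit over all genes, read within that cap.

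The RNA libraries were of sorted cells from back skin, with 3 libraries per group. The E13 KO epidermis carried the genotype {delta}Np63 -GFP KI-KO, in which the ΔNp63 form of p63 is lost. The E13 Het epidermis, the E9 epidermis and the E13 dermis all carried {delta}Np63 -GFP KI-Het, so that every group had at least 1 GFP allele at this locus and none was wild type. Epidermal cells were sorted for GFP, which marks cells that use the ΔNp63 promoter, and dermal cells for CD140a (Pdgfra), a receptor of mesenchymal cells. Ribosomal RNA was removed from the epidermal samples, whereas dermal RNA was captured with oligo(dT). The number of embryos per library was not given, so that a p-value covers the scatter of these libraries alone.

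At E9 the embryo is covered by a simple surface ectoderm, from which the stratified epidermis is made under the control of p63. Regions of this early ectoderm act as signalling centres. The best known is the apical ectodermal ridge of the limb bud, which secretes FGF8, depends on the zinc finger factor SP8, and expresses homeobox genes of the Dlx family. Retinoic acid patterns the same tissues: CRABP1 carries retinoic acid inside the cell, and enzymes of the CYP26 family degrade it. The set holds members of each of these systems, together with genes of the matrix, of lipid metabolism and of the early embryo.

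RefSeq promoter windows (GRCm38.p6), from 250 bases before to 50 bases after a listed transcription start, were matched by symbol for 23 of the 36 genes. Among the 13 with no matched entry were B4galt6, Etv4, Fgf8, Smoc1, Scd1, Pm20d1, Clic6, Col2a1, Pax3, Greb1l and Meox1. Of the 23, 4 windows are shown, for genes on which the results below turn. Hapln1 (chr13:89540386-89540685, plus strand) had all KO libraries above its Het libraries, as 12.3% of all genes did. It was not called by edgeR on all libraries. Crabp1 (chr9:54764498-54764797, plus strand) was high in dermis. The ridge genes were Sp8 (chr12:118846079-118846378, plus strand, the first of 3 windows listed) and Dlx2 (chr2:71546705-71547004, minus strand). Capitals mark matches, on either strand, to the TATA box TATAAA, the GC box core GGGCGG, the box CCAAT, the homeodomain core TAATTA or the E-box form CACCTG, and no match shown overlaps another.
Hapln1: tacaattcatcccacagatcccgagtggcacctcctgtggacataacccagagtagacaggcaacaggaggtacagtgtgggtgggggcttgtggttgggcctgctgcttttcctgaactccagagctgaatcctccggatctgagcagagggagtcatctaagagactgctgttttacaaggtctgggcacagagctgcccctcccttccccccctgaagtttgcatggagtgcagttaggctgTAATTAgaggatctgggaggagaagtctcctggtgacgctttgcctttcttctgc
Crabp1: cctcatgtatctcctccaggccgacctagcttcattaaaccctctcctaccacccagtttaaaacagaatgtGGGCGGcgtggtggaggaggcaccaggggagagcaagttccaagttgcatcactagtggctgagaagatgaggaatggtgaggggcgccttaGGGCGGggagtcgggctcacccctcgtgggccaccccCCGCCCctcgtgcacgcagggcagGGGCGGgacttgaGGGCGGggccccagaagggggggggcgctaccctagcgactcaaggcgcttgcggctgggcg
Sp8: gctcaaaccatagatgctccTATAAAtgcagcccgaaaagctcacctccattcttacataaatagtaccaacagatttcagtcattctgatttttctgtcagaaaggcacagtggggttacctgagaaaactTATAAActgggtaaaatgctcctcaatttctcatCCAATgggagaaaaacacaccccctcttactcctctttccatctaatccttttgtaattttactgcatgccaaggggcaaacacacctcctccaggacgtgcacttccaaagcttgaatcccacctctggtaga
Dlx2: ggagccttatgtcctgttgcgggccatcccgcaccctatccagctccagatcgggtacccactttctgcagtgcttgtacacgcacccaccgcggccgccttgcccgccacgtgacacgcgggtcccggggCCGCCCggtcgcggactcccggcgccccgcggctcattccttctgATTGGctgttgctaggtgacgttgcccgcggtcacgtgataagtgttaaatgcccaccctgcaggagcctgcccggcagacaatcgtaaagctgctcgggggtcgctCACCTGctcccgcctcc

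The 4 windows were unlike each other. The Hapln1 window had 3 CpG and the Sp8 window had 2 CpG, against 17 in the Crabp1 window and 29 in the Dlx2 window. The GC box core GGGCGG occurred 5 times in the Crabp1 window, once in that of Dlx2 and in neither of the others, and Sp8 had a pair of TATAAA matches. Over the 23 windows the median GC content was 62.3%, against 61.3% over the 9613 tested genes with a window. Windows with a CpG ratio (observed over expected) of at least 0.6 and a GC content of at least 55% made up 52.2% of those of the set (12 of 23), against 63.9% of all and 71.3% of the 6094 windows of genes that reached the E9 minimum. TATAAA was found in 4 of the 23 (17.4%, against 6.54% of all windows), CACCTG in 8 (34.8%, against 17.3%), GGGCGG in 14 (60.9%, against 66.4%), CCAAT in 9 (39.1%, against 39.1%) and TAATTA in 1 (4.35%, against 2.24%). These shares describe the letters in the windows. The 36 genes spanned a median of 31636 bp in the annotation, against 24779 bp over the 12149 tested genes that matched, and lay on 18 chromosomes, with 4 on chromosome 11.

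The epidermal libraries held 3373819 to 7777808 counts in genes and the dermal ones 16931664 to 33386872. Trp63, the gene that carries the altered allele, had 24.9, 27.4 and 23.4 CPM in KO epidermis, against 582, 636 and 477 CPM in Het epidermis at E13 and 128 to 303 CPM at E9. The summed level of 15 surface epithelium markers was 4041 to 5128 CPM in KO, 4349.6 to 6284 CPM in E13 Het and 3148 to 3308 CPM in E9 epidermis, and 10.4 to 12.2 CPM in dermis. The list includes Trp63, and its sum hides opposite shifts. Of the 15 markers, edgeR called 1 higher (Epcam) and 3 lower (Krt5, Grhl3 and Trp63) in KO than in E13 Het epidermis. Over all genes 2.2% were called. Krt5 had 47.8, 21.3 and 45.3 CPM in KO and 1447, 1074 and 1424 CPM in E13 Het epidermis. Epcam had 567, 475 and 525 CPM in KO and 229, 195 and 236 CPM in E13 Het epidermis. A pair of E13 libraries detected fewer genes than the rest, with 11275 genes in KO replicate 3 and 10765 in Het replicate 1, against 14245 to 16200 in the other E13 epidermal libraries. Of the 36 genes, 23 had no count in KO replicate 3 and 24 had none in Het replicate 1, where 15.6% and 18.8% of all tested genes were at 0. In the other E13 libraries 3 to 8 of the 36 were at 0. A 0 in those 2 libraries says less than in the rest, and 3 counts over a whole group corresponded to 0.184 CPM in KO, 0.173 CPM in E13 Het and 0.187 CPM in E9 epidermis.

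Summed over the 36 genes, the level was 275, 314 and 143 CPM in KO epidermis and 95.1, 181 and 195 CPM in Het epidermis at E13, against 4189, 4118 and 4039.9 CPM at E9. The KO mean of a gene was at most 13.3% of its E9 mean, with a median of 4.58% and 21 genes under 5%. The Het mean was at most 17.4% of the E9 mean, with a median of 2.94% and 25 genes under 5%. Among genes with counts, the lowest shares were 0.705% in KO (Zscan10) and 0.472% in Het epidermis (Dgkk). A group without counts was set at 3 counts, an upper bound. This bound was 0.401% in KO and 0.377% in Het for Car4, and 0.624% in Het for Ppp2r2c. Most of the genes were thus low rather than without counts at E13, and Car4 alone had no count in any of the 6 libraries. Both comparisons use the same E9 libraries. In sorted bulk RNA, fewer cells using a gene and less of its RNA per cell cannot be told apart. CPM are per library and not per gene length, so levels are compared between libraries and not between genes.

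**Figure D1:**
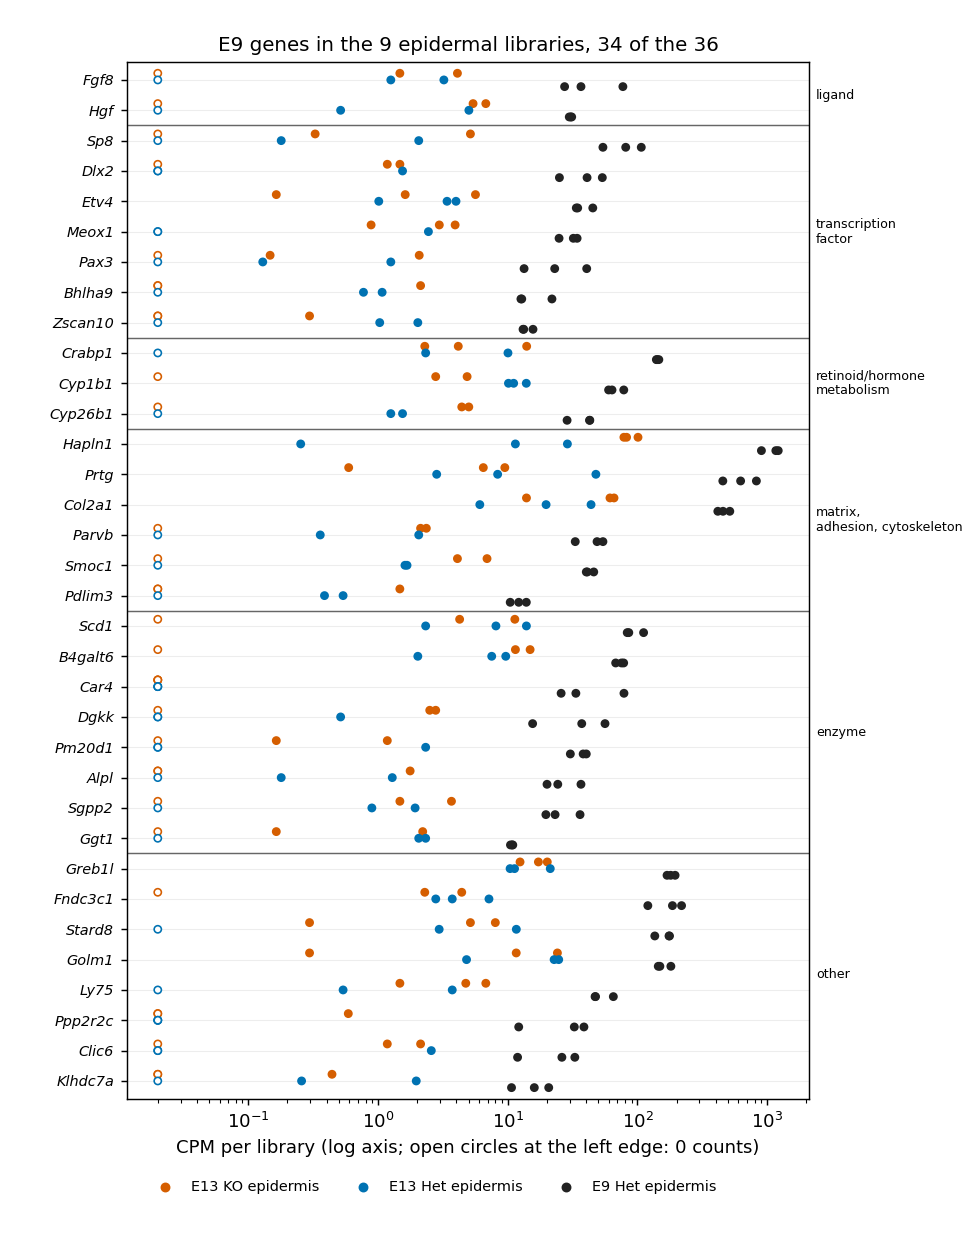
CPM of 34 of the 36 genes in every epidermal library on a log axis, with E13 KO, E13 Het and E9 libraries as separate colours in each row and open circles at the left edge for 0 counts. Each gene's E9 points lie to the right of its E13 points, by construction, and the E13 points of a gene scatter widely, as for Sp8 with 0, 0.327 and 5.15 CPM in the KO libraries.

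The set held 2 secreted ligands, Fgf8 and Hgf. Fgf8 (chr19:45736491-45742941), the growth factor of the limb ridge and of other early signalling centres, had 4.09, 1.47 and 0 CPM in KO epidermis and 0, 3.21 and 1.25 CPM in Het epidermis at E13, against 77.2, 27.4 and 36.7 CPM at E9. E9 replicate 1 was well above the other E9 libraries. Hgf (chr5:16553495-16619439), hepatocyte growth factor, which acts through the Met receptor, had 5.40, 6.77 and 0 CPM in the KO libraries and 0, 0.514 and 5.01 CPM in the Het libraries at E13, and 29.8, 31.1 and 30.6 CPM at E9. Its E9 libraries were close together, and it kept the largest share of its E9 mean in KO epidermis, 13.3%, against 6.04% in Het epidermis.

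The 8 transcription factor genes of the set included Sp8, Dlx2, Bhlha9, Etv4, Pax3, Meox1 and Zscan10. Their median share of the E9 mean was 2.57% in KO and 2.43% in Het epidermis. Sp8 (chr12:118846288-118852578), the zinc finger factor needed for the limb ridge, had 0.327, 5.15 and 0 CPM in KO epidermis and 0, 2.06 and 0.179 CPM in Het epidermis at E13, against 107, 81.1 and 54.1 CPM at E9. Dlx2 (chr2:71543408-71546754), a homeobox factor of branchial arches, forebrain and limb ectoderm, had 1.47, 1.18 and 0 CPM in the KO libraries and 0, 1.54 and 0 CPM in the Het libraries at E13, and 53.6, 40.8 and 25.005 CPM at E9. Both were highest in E9 replicate 1 and lowest in E9 replicate 4, and no E13 library passed 5.15 CPM for Sp8 or 1.54 CPM for Dlx2. Bhlha9, a basic helix-loop-helix factor of the limb ridge, had 12.6 to 21.9 CPM at E9 and at most 2.13 CPM at E13.

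Etv4 (chr11:101769747-101785310) encodes an ETS factor induced by FGF signalling and had 0.164, 1.62 and 5.63 CPM in KO epidermis and 1.01, 3.99 and 3.40 CPM in Het epidermis at E13, against 45.2, 34.6 and 33.7 CPM at E9. The KO and Het ranges overlapped, and KO replicate 3, where most of the set was at 0, held the highest E13 value. Pax3, a paired-box factor of neural crest, dorsal neural tube and muscle progenitors, had 0, 0.147 and 2.08 CPM in the KO libraries and 0, 0.129 and 1.25 CPM in the Het libraries at E13, and 40.6, 23.00 and 13.4 CPM at E9. Meox1, a homeobox factor of the somites, had 3.92, 0.883 and 2.96 CPM in KO epidermis and 0, 2.44 and 0 CPM in Het epidermis at E13, against 24.8, 32.01 and 34.2 CPM at E9. E9 replicate 1 was highest for Pax3 and lowest for Meox1. Zscan10, a zinc finger factor of pluripotent cells, had 0, 0 and 0.296 CPM in the KO libraries and 2.02, 1.03 and 0 CPM in the Het libraries at E13, and 13.3, 15.6 and 13.1 CPM at E9, with 3 of the 6 E13 libraries at 0.

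Pax3 is also a marker of neural crest, and the other crest markers were read beside it. The summed level of the 11 crest markers was 1245 to 1492 CPM in KO, 1069.6 to 1255 CPM in E13 Het and 449 to 539.5 CPM in E9 epidermis. Tfap2b, which the surface ectoderm also uses, gave 207 to 294 CPM of the E9 sum. It gave 950 to 1169 CPM of the sum in KO and 826 to 1094 CPM in E13 Het epidermis. Sox10, which defines migrating crest, had 0, 1.66 and 3.88 CPM at E9 and Foxd3 had 0 in all 3. Other crest markers were present: Ednrb had 10.5, 2.58 and 19.2 CPM at E9, and Erbb3 129 to 136 CPM. Erbb3 was not particular to E9, with 237 to 284 CPM in KO and 121.5 to 192 CPM in E13 Het epidermis. In dermis Erbb3 had 0 to 2.78 CPM. Kit, a receptor of melanocyte precursors and of other cells, had 5.89, 12.1 and 0.296 CPM in KO epidermis and 0, 2.44 and 3.04 CPM in Het epidermis at E13, against 37.3, 17.8 and 51.7 CPM at E9. Kit, outside the set, had every E9 library above every E13 library, a separation that the rule had fixed in advance for Pax3. Kit was called lower in E13 Het than in E9 epidermis (log2 fold change -4.21 ± 1.18, SE, adjusted p = 0.0481 by edgeR). Over all genes 2.53% were called lower in that comparison. Kit was not called in KO against E9 epidermis (adjusted p = 0.188 by edgeR). The cranial placode markers, which label thickened ectoderm of the head, summed to 31.7 to 84.6 CPM in KO and 54.1 to 68.3 CPM in E13 Het epidermis, against 206 to 353 CPM at E9. The part of these cells in the values of the set was not tested.

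Retinoid and hormone metabolism was represented by 4 genes, Crabp1, Cyp26b1 and Cyp1b1 among them. Crabp1 (chr9:54764748-54773110), the cellular carrier of retinoic acid, had 2.29, 13.98 and 4.15 CPM in KO epidermis and 0, 10.03 and 2.33 CPM in Het epidermis at E13, against 139.8, 146 and 142 CPM at E9. Its E9 libraries were among the most alike of the set, with a mean of 143 ± 3.21 CPM (SD, n = 3). Cyp26b1 (chr6:84571414-84593908), which degrades retinoic acid, had 4.42, 5.003 and 0 CPM in KO epidermis and 0, 1.54 and 1.25 CPM in Het epidermis at E13, against 42.9, 42.7 and 28.6 CPM at E9. Cyp1b1 (chr17:79706940-79715061), a cytochrome P450 that oxidises oestrogens and retinoids, had 2.78, 4.86 and 0 CPM in the KO libraries and 10.1, 13.9 and 11.1 CPM in the Het libraries at E13, and 59.9, 78.4 and 63.6 CPM at E9. Cyp1b1 was the gene of the set nearest to the ratio of 4, and it kept the largest share of the E9 mean in Het epidermis, 17.4%, against 3.78% in KO epidermis.

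Another 6 genes encode matrix, adhesion or cytoskeletal proteins: Hapln1, Col2a1, Smoc1, Prtg, Parvb and Pdlim3. Hapln1 (chr13:89540529-89611832), the link protein that holds proteoglycans on hyaluronan, had 101, 78.6 and 82.4 CPM in KO epidermis and 0.253, 11.4 and 28.8 CPM in Het epidermis at E13, against 1166, 1217 and 903 CPM at E9. The KO libraries lay together between 78.6 and 101 CPM, above all Het libraries, which were spread widely. Col2a1 (chr15:97975602-98004724), the chain of type II collagen, had 65.9, 61.4 and 13.9 CPM in the KO libraries and 19.7, 43.8 and 6.08 CPM in the Het libraries at E13, and 456, 416 and 515 CPM at E9. Its KO and Het ranges overlapped. Prtg (chr9:72807274-72917307), protogenin, an immunoglobulin superfamily receptor of early embryos, had 9.48, 6.47 and 0.593 CPM in KO epidermis and 8.35, 2.83 and 47.8 CPM in Het epidermis at E13, against 455, 624 and 826 CPM at E9. Het replicate 3 was far above the other E13 libraries for Prtg, and E9 replicate 4 was the highest of the E9 libraries.

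Smoc1, a secreted matrix protein that modulates BMP signalling in limb and eye, had 4.09, 6.92 and 0 CPM in the KO libraries and 0, 1.67 and 1.61 CPM in the Het libraries at E13, and 45.99, 41.03 and 40.3 CPM at E9. Parvb, an adaptor of integrin-linked kinase, had 2.13, 2.35 and 0 CPM in KO epidermis and 0, 2.06 and 0.358 CPM in Het epidermis at E13, against 48.8, 33.1 and 54.1 CPM at E9. Pdlim3, an actinin-binding LIM protein, had 0, 1.47 and 0 CPM in the KO libraries and 0, 0.386 and 0.537 CPM in the Het libraries at E13, and 13.9, 12.1 and 10.4 CPM at E9, and stood nearest above the E9 minimum. Each of the 3 was at 0 in Het replicate 1 and KO replicate 3 and overlapped between KO and Het. Because several matrix genes are also read in mesenchyme, the dermal mesenchyme markers were set beside them. The summed level of the 14 markers was 2369 to 3849.5 CPM in KO, 1232 to 2539 CPM in E13 Het and 1627 to 1861 CPM in E9 epidermis, against 24275 to 42057 CPM in dermis. Fn1, which is not particular to mesenchyme, gave 1367 to 1491 CPM of the E9 sum, while Twist2, Lum, Dcn and Dpt were at 0 in all E9 libraries. Other markers of the list were present in every E9 library, with 85.8 to 139 CPM for Col1a2, 63.3 to 114 CPM for Vim, 21.2 to 50.3 CPM for Pdgfra, 18.45 to 72.2 CPM for Col1a1 and 4.32 to 21.4 CPM for Twist1. The part of mesenchymal cells in the matrix genes was not tested.

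The 8 enzymes were mostly of lipid and membrane metabolism. Scd1, stearoyl-CoA desaturase, had 4.25, 11.3 and 0 CPM in KO epidermis and 13.9, 8.10 and 2.33 CPM in Het epidermis at E13, against 111, 83.3 and 85.7 CPM at E9. B4galt6, which makes lactosylceramide, had 11.4, 14.9 and 0 CPM in the KO libraries and 2.02, 9.64 and 7.52 CPM in the Het libraries at E13, and 78.2, 67.9 and 75.3 CPM at E9. Dgkk, a diacylglycerol kinase, had 2.78, 2.50 and 0 CPM in KO epidermis and 0, 0.514 and 0 CPM in Het epidermis at E13, against 56.2, 37.2 and 15.5 CPM at E9. For Scd1 and B4galt6 the KO and Het ranges overlapped, while Dgkk had a count in a single Het library and was 3.62 times higher in E9 replicate 1 than in E9 replicate 4, the widest E9 spread of the set. Sgpp2, a sphingosine phosphate phosphatase, had 19.7 to 36.1 CPM at E9 and at most 3.68 CPM at E13.

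Pm20d1, which joins fatty acids to amino acids, had 0.164, 1.18 and 0 CPM in the KO libraries and 0, 0 and 2.33 CPM in the Het libraries at E13, and 40.3, 30.4 and 38.1 CPM at E9. Car4 (chr11:84957754-84966054), a carbonic anhydrase anchored at the cell surface, had 0 CPM in all KO and all Het libraries at E13, against 25.8, 33.5 and 78.7 CPM at E9. Set against 3 counts over the group, Car4 was at least 249.5-fold lower in KO and at least 265-fold lower in E13 Het than in E9 epidermis. E9 replicate 4 held more than the other E9 libraries for Car4 and also for Alpl, tissue-nonspecific alkaline phosphatase, which had 20.1 to 36.7 CPM at E9 and at most 1.77 CPM at E13. That library also held more muscle markers (118 CPM summed over 12 markers, against 5.71 CPM in the lowest E9 library) and more markers of primitive red cells (65.6 against 0.31 CPM), with Myod1 at 0. Their part in the values of E9 replicate 4 was not tested. Ggt1, gamma-glutamyltransferase, had 0.164, 2.21 and 0 CPM in KO epidermis and 0, 2.06 and 2.33 CPM in Het epidermis at E13, against 10.8, 10.5 and 10.9 CPM at E9, and its E9 libraries differed by only 1.04 times.

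The remaining 8 genes have other roles. Greb1l, a paralogue of the oestrogen-responsive gene Greb1 that is needed for kidney development, had 12.4, 17.2 and 20.2 CPM in the KO libraries and 21.3, 10.4 and 11.3 CPM in the Het libraries at E13, and 169, 180.3 and 195 CPM at E9. It was the steadiest gene of the set at E13, with counts in every library. Stard8, a GTPase-activating protein with a lipid-binding domain, had 8.01, 5.15 and 0.296 CPM in KO epidermis and 0, 2.96 and 11.6 CPM in Het epidermis at E13, against 175, 136 and 176 CPM at E9. Golm1, a Golgi membrane protein, had 11.6, 24.1 and 0.296 CPM in the KO libraries and 4.81, 22.8 and 24.7 CPM in the Het libraries at E13, and 181, 145 and 149 CPM at E9. Both ranged from under 1 CPM to over 10 CPM among the E13 libraries. Fndc3c1, on the X chromosome, had 2.29, 4.41 and 0 CPM in KO epidermis and 2.78, 3.73 and 7.16 CPM in Het epidermis at E13, against 219, 186 and 120.2 CPM at E9. Ly75, an endocytic receptor best known from dendritic cells, had 1.47, 6.77 and 4.74 CPM in the KO libraries and 0, 3.73 and 0.537 CPM in the Het libraries at E13, and 65.1, 47.5 and 47.1 CPM at E9.

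Ppp2r2c, a regulatory subunit of protein phosphatase 2A, had 0, 0.589 and 0 CPM in KO epidermis and 0, 0 and 0 CPM in Het epidermis at E13, against 32.6, 38.6 and 12.1 CPM at E9. A single KO library held all of its E13 counts. Clic6, of the chloride intracellular channel family, had 2.13, 1.18 and 0 CPM in the KO libraries and 0, 2.57 and 0 CPM in the Het libraries at E13, and 32.9, 26.1 and 11.9 CPM at E9. Klhdc7a had 0, 0.441 and 0 CPM in KO epidermis and 0, 0.257 and 1.97 CPM in Het epidermis at E13, against 20.7, 16.01 and 10.7 CPM at E9. Ppp2r2c and Clic6 were lowest in E9 replicate 4, as was Klhdc7a, and so were Sp8, Dlx2, Pax3 and Dgkk among the genes above.

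Across the set, the highest E9 library was 1.04 to 3.62 times the lowest, with a median of 1.36, against a median of 1.42 over all genes at the E9 minimum. The E9 libraries were within 1.5 times for 21 of the 36 genes and more than 2 times apart for 7. Replicate 1 was the highest E9 library for 17 genes, replicate 2 for 9 and replicate 4 for 10.

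The thresholds cut through a continuous range. Just inside the ratio of 4 were Cyp1b1 (4.31), Hgf (4.40), Ggt1 (4.51) and B4galt6 (4.57), and just outside were Pctp (3.97), Atoh8 (3.92), Ror1 (3.81), Igdcc3 (3.74) and Tcf7 (3.73). Just above the E9 minimum were Pdlim3 with a lowest E9 value of 10.4 CPM, Ggt1 with 10.5, Klhdc7a with 10.7, Clic6 with 11.9 and Ppp2r2c with 12.1 CPM. Just below it were Batf3 with 9.02 CPM, Gata5 with 8.33, Six3os1 with 7.73, Emx1 with 7.54 and Cmklr1 with 7.10 CPM.

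Loss of ΔNp63 was then compared with its presence at the same age. The rule used the values of both genotypes and kept genes low in each, which left few counts and little room for a difference, so the number of genes called is given as a description and nothing is read from it. None of the 36 genes was called between KO and Het epidermis at E13 (edgeR's quasi-likelihood test at a Benjamini-Hochberg adjusted p below 0.05), where 2.2% of the 13052 genes tested were called, 0.835% higher and 1.36% lower in KO. At an unadjusted p under 0.05 there were 3 of the 36, against 11.4% of all genes. DESeq2 called 1 of the 36, lower in KO, and limma voom with sample quality weights called 1, higher in KO. All 36 genes passed the filter on low counts, as their E9 libraries alone allowed. The log2 fold change of KO over Het was positive for 23 genes, with a median over the set of 0.25, against 0.03 over all genes.

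Hapln1 was the gene whose KO libraries all lay above its Het libraries, as 12.3% of all genes did. It averaged 87.3 ± 11.9 CPM in KO and 13.5 ± 14.4 CPM in Het epidermis (SD, n = 3 each), a log2 fold change of 2.58 ± 0.86 (SE) with an adjusted p of 0.288 by edgeR. Het replicate 1 held 1 count of Hapln1, and without that library the log2 fold change was 2.06 with an adjusted p of 0.0203. By limma voom it was 2.71 with an adjusted p of 0.0132, and over 17 alternatives the adjusted p ran from 0.0132 to 0.56, with Hapln1 called in 3.

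Cyp1b1 was the gene whose KO libraries all lay below its Het libraries, as 8.11% of all genes did. It averaged 2.54 ± 2.44 CPM in KO and 11.7 ± 1.96 CPM in Het epidermis (SD, n = 3 each), a log2 fold change of -2.17 ± 0.68 (SE) with an adjusted p of 0.154 by edgeR. DESeq2 gave -2.16 with an adjusted p of 0.00187, the lowest of 17 alternatives, of which the highest was 0.65 and 2 called Cyp1b1. Without the 2 libraries of fewest genes detected, KO replicate 3 and Het replicate 1, edgeR called both genes, Hapln1 at 2.09 with an adjusted p of 0.0456 and Cyp1b1 at -1.79 with an adjusted p of 0.0469. That fit was chosen after these values were seen. Neither gene was called on all libraries by edgeR, and each was called under some settings.

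Dgkk had the remaining unadjusted p under 0.05, with a log2 fold change of 2.96 ± 1.25 (SE) and an adjusted p of 0.362 by edgeR. It averaged 1.76 ± 1.53 CPM in KO and 0.171 ± 0.297 CPM in Het epidermis. For most of the other genes the error was as large as the estimate. The ridge genes Fgf8 (0.24 ± 1.08), Sp8 (1.11 ± 1.26) and Dlx2 (0.61 ± 1.17, log2 fold change ± SE) were of this kind, and so were Crabp1 (0.58 ± 0.99) and Pax3 (0.39 ± 1.49). The estimate was tightest for Greb1l, at 0.17 ± 0.30, whose counts were spread over all E13 libraries. These errors leave room for differences between KO and Het that the libraries could not detect, and the absence of a call does not show that KO and Het were alike. The smallest change called among all genes was 0.48 on the log2 scale.

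**Figure D2:**
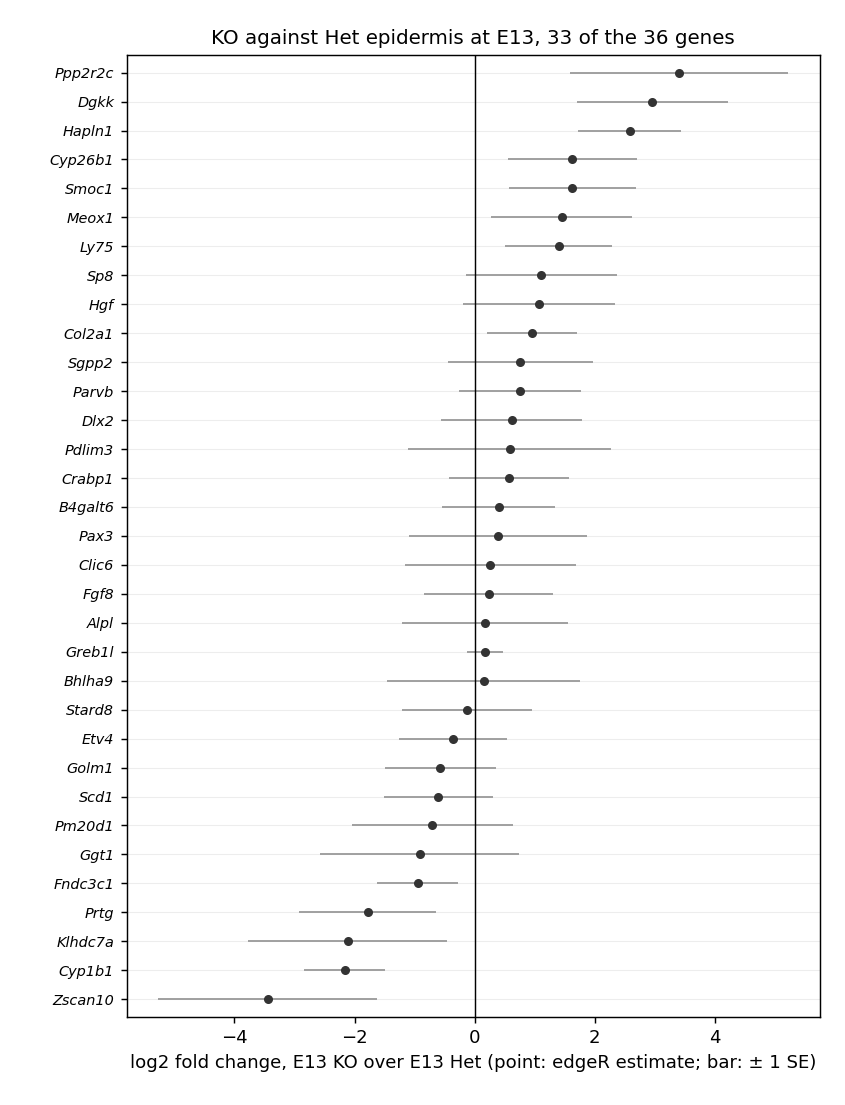
The log2 fold change of KO over Het epidermis at E13 for 33 of the 36 genes, as edgeR's estimate with a bar of 1 SE on each side (Car4, with no counts at E13, has no estimate). Hapln1 at 2.58 and Dgkk at 2.96 lie to the right and Cyp1b1 at -2.17 to the left of 0, and most bars cross 0. Ppp2r2c at 3.40 and Zscan10 at -3.44 lie farthest from 0, each with an SE of 1.82.

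The other genes of the same pathways were read to see how far they shared the pattern. The 16 retinoic acid genes included 3 of the set, Crabp1 and Cyp26b1 among them, and 10 of the others were tested. Between KO and Het at E13, 1 of the 10 was called higher (Crabp2) and 1 lower (Rarg) in KO. Over all genes 0.835% were called higher and 1.36% lower. The median log2 fold change over the 10 was 1.35, against 0.03 over all genes. Between E13 Het and E9 epidermis 2 of the 10 were called lower (Crabp2 and Aldh1a3) and 1 higher (Rarg) at E13, where 7.29% of all genes were called, 2.53% lower and 4.77% higher. Between KO and E9 epidermis 1 of the 10 was called lower (Crabp2) and none higher, where 7.67% of all genes were called, 3.05% lower and 4.62% higher. The median over the 10 was -1.44 for E13 Het over E9 and -0.38 for KO over E9, against -0.00 and 0.01 over all genes. The 2 comparisons share the E9 libraries.

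Crabp2, the paralogue of Crabp1 that delivers retinoic acid to its nuclear receptors, had 73.6, 68.3 and 43.6 CPM in KO epidermis and 11.9, 17.1 and 7.87 CPM in Het epidermis at E13, against 135, 158 and 239 CPM at E9. Unlike Crabp1 it was called between KO and Het, with a log2 fold change of 2.27 ± 0.33 (SE, adjusted p = 0.00175 by edgeR), and the KO, Het and E9 ranges did not overlap. Rarg, the retinoic acid receptor of skin, had 68.4, 73.4 and 44.5 CPM in the KO libraries and 159, 151 and 158 CPM in the Het libraries at E13, and 90.4, 95.1 and 57.5 CPM at E9, a log2 fold change of KO over Het of -1.38 ± 0.25 (SE, adjusted p = 0.00755 by edgeR). Aldh1a3, which makes retinoic acid, had 4.91, 16.9 and 0 CPM in KO epidermis and 0, 1.16 and 0.358 CPM in Het epidermis at E13, against 43.1, 15.6 and 128 CPM at E9, with every E9 library above the Het libraries and 1 KO library inside the E9 range. Whether Crabp1 and Crabp2 differed in their KO over Het change was not tested.

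Of the 18 FGF ligand and feedback genes, Fgf8 and Etv4 were in the set, and 12 others were tested. Between KO and Het none of the 12 was called by edgeR, and 4 had an unadjusted p under 0.05. Over all genes 2.2% were called and 11.4% had an unadjusted p under 0.05. Between E13 Het and E9 epidermis 1 was called lower, the feedback inhibitor Spry4, at -4.32 ± 0.81 (log2 fold change ± SE, adjusted p = 0.0079 by edgeR). Spry4 had 18.6, 25.5 and 36.8 CPM in the KO libraries and 0, 6.43 and 4.83 CPM in the Het libraries at E13, and 87.8, 100.1 and 49.5 CPM at E9, and its KO libraries lay between the Het and the E9 libraries. Between KO and E9 epidermis 1 was called lower, Etv5, the close relative of Etv4, at -2.47 ± 0.39 (adjusted p = 0.00124 by edgeR). Etv5 had 9.98, 23.5 and 11.9 CPM in KO epidermis and 55.9, 44.5 and 26.5 CPM in Het epidermis at E13, against 88.1, 90.9 and 63.6 CPM at E9, with the KO libraries lowest. The median over the 12 was -1.14 for E13 Het over E9 and -1.22 for KO over E9.

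Of the 11 limb ridge genes, Fgf8, Sp8 and Dlx2 were in the set and 7 others were tested. Of the 7, Sp6, a relative of Sp8 in the same ridge, was called lower at E13 in both groups, at -2.67 ± 0.41 in KO (adjusted p = 0.00128) and -2.49 ± 0.41 in Het epidermis (adjusted p = 0.00189), log2 fold changes over E9 ± SE by edgeR. Sp6 had 34.3, 23.4 and 25.5 CPM in the KO libraries and 27.1, 13.8 and 50.3 CPM in the Het libraries at E13, and 197, 192 and 121 CPM at E9. Dlx3, a homeobox gene that differentiating epidermis keeps using, had 67.7, 47.1 and 21.04 CPM in KO epidermis and 48.1, 41.3 and 49.7 CPM in Het epidermis at E13, against 92.8, 99.9 and 85.2 CPM at E9; it was not called, with 21.0 to 67.7 CPM over the 6 E13 libraries. Dlx5 had 5.56, 7.95 and 0 CPM in the KO libraries and 0, 2.31 and 2.50 CPM in the Het libraries at E13, and 35.3, 30.9 and 16.02 CPM at E9; it was not called either, although its E13 and E9 libraries did not overlap. Lmx1b went the other way in KO epidermis, although it was not called. It had 52.8, 50.2 and 60.5 CPM in KO and 38.5, 21.0 and 21.5 CPM in Het epidermis at E13. At E9 Lmx1b had 37.5, 32.75 and 29.4 CPM. The median over the 7 was -3.83 for E13 Het over E9 and -2.63 for KO over E9. Between KO and Het none of the 7 was called and 1 had an unadjusted p under 0.05, against 2.2% and 11.4% of all genes.

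**Figure D3:**
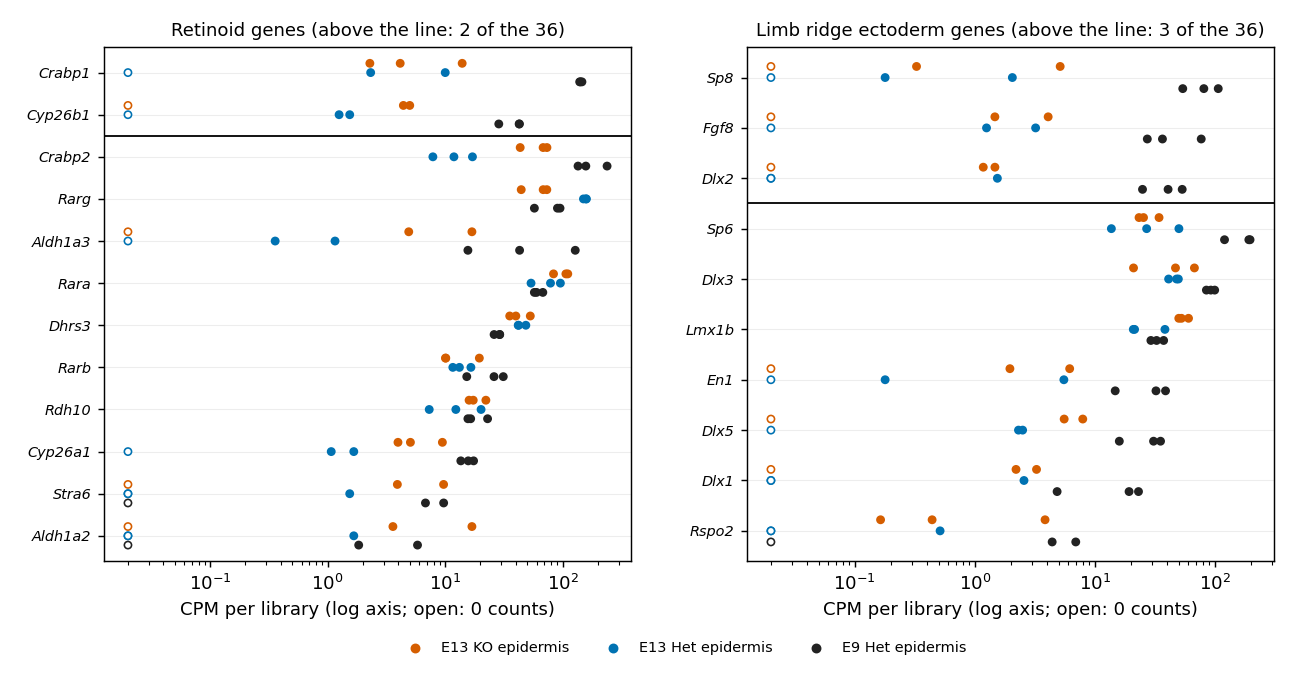
CPM per epidermal library on a log axis for the tested retinoic acid genes and limb ridge genes, with genes of the set above the line in each panel and the other genes of the list below it, in E13 KO, E13 Het and E9 libraries. Crabp2 at 43.6 to 73.6 CPM in KO lies between the Het libraries and the E9 libraries. Dlx3, at 21.0 to 67.7 CPM across the E13 libraries, lies below its E9 libraries.

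The 26 genes of the early embryo and of pluripotency included Zscan10, and 8 of the others were tested. The median log2 fold change over the 8 was -2.79 for E13 Het over E9 and -0.64 for KO over E9. Klf4 went the other way and was not called. It had 64.5, 85.2 and 115 CPM in E13 Het and 67.4, 58.3 and 0.889 CPM in KO epidermis. At E9 Klf4 had 1.46 to 6.48 CPM. Pou5f1 and Nanog, on the list but not tested, had at most 6.80 and 3.64 CPM at E9. Nr6a1, the germ cell nuclear factor that silences pluripotency genes in the embryo, was the 1 of the 8 called lower in each E13 group. It had 21.8, 25.9 and 46.8 CPM in KO epidermis and 26.8, 24.3 and 20.2 CPM in Het epidermis at E13, against 139.8, 168 and 197 CPM at E9, and stood -2.50 ± 0.30 in KO and -2.83 ± 0.30 in Het epidermis from E9 (log2 fold change ± SE, adjusted p = 0.000125 and 4.64e-05 by edgeR).

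The dermis gave a view of the same genes in the neighbouring tissue at E13. Tissue and RNA preparation coincide and cannot be told apart, so dermal values are given with no test. Of the 36 genes, 10 (27.8%) averaged at least 10 CPM in dermis, against 89.1% of the 8060 genes at the E9 minimum. Another 15 (41.7%) averaged under 1 CPM, against 2.48%. The 36 genes were chosen low in E13 epidermis and the 8060 were not, so nothing is read from these gaps. There were 7 genes (Sp8, Car4, Sgpp2, Klhdc7a, Bhlha9, Zscan10 and Ggt1) with no count in any dermal library, and 0 counts allow a level of up to 0.0428 CPM over the group (3 counts, counting error only). The summed level of the 36 genes was 1528, 1429.9 and 1725 CPM in the dermal libraries, most of it from Crabp1.

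Crabp1 had 1142, 1155 and 1364 CPM in dermis, with a mean of 1220.4 ± 125 CPM (SD, n = 3), against at most 14.0 CPM in any E13 epidermal library and 139.8 to 146 CPM at E9. It was above every E9 library in all 3 dermal libraries, and its promoter window is the GC-box-rich one shown above. In dermis Golm1 had 92.1, 82.5 and 99.3 CPM. Stard8 had 77.7, 40.04 and 58.5 CPM. Scd1 had 50.2, 36.9 and 55.2 CPM. All 3 lay above their own E13 epidermal libraries and below their E9 libraries, and for Golm1 and Scd1 the dermal mean was over 50% of the E9 mean. B4galt6 had 31.2, 18.8 and 31.1 CPM. Etv4 had 21.7, 16.9 and 7.94 CPM. In both genes the dermal libraries stayed below every E9 library. Greb1l had 17.1, 9.10 and 11.3 CPM, which overlapped its range in E13 epidermis. Smoc1 had 12.4, 8.45 and 15.96 CPM and Cyp26b1 had 12.8, 9.69 and 9.11 CPM.

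The 3 limb ridge genes of the set were at or near 0 in dermis: Sp8 had no count, Fgf8 had 0.101, 0 and 0 CPM and Dlx2 had 0.202, 0 and 0 CPM. This did not hold for every ridge gene, as En1, outside the set, had 52.9, 24.6 and 32.6 CPM in dermis. Of the matrix genes, Hapln1 had 1.01, 0.059 and 3.92 CPM in dermis. Prtg had 2.07, 0.472 and 3.65 CPM there, and Col2a1 4.35, 1.18 and 12.2 CPM. These 3 genes had at least 416 CPM in every E9 library. Hgf, which mesenchyme is known to secrete, had 7.64, 6.85 and 11.9 CPM, with a mean of 8.78 ± 2.69 CPM (SD, n = 3). Of the role groups, 5 of 8 enzymes, 5 of 8 transcription factors and 0 of the 4 retinoid and hormone genes averaged under 1 CPM in dermis. In the same order, 2, 1 and 3 genes averaged at least 10 CPM, as 89.1% of the genes at the E9 minimum did. The groups are small, and nothing is read from these counts.

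**Figure D4:**
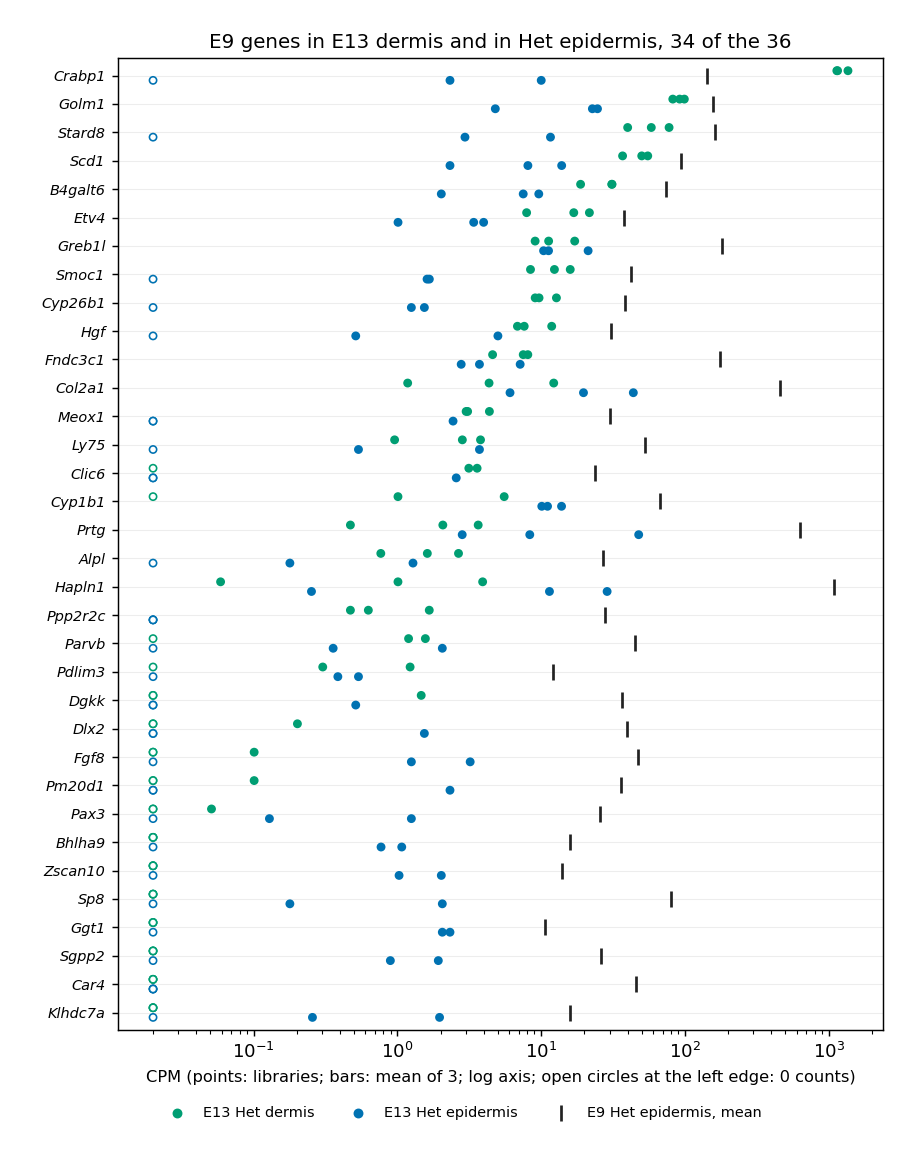
CPM of 34 of the 36 genes in E13 Het dermis and E13 Het epidermis, with points for libraries, and a bar for the E9 epidermal mean of 3 libraries, on a log axis with open circles at the left edge for 0 counts. Crabp1 lies at 1142 to 1364 CPM in dermis, beyond its E9 mean, and 7 genes have open circles alone in dermis.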

How the data were processed

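RNA-seq counts were analysed for 12 of the 20 samples; the 7 ATAC-seq samples and the 1 ChIP-seq sample of the series were not analysed here. The authors deposited whole-number counts per gene symbol for each library, with 5 HTSeq summary lines that hold 48.8% to 63.8% of the total in epidermal and 20.2% to 21.6% in dermal files. These lines stayed out of all totals. Per the submitters' processing notes, TopHat2, Bowtie2, HTSeq and the mm10 build were used; versions and the strand setting of the counting are not given in the sources used here. Per the labels' protocols, directional library kits were used. Coordinates and names come from a RefSeq table of GRCm38.p6. Of the 36 genes, Smoc1 overlaps the counted Mir3067 and Sgpp2 the counted Farsb, and reads of such pairs cannot be told apart. The ribosomal repeat Rn45s took 2.90% to 9.69% of epidermal and 11.2% to 30.7% of dermal counts.

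CPM were computed over the gene counts. The 3 epidermal groups were fitted together with R 4.3.3 and edgeR 4.0.16, using its quasi-likelihood test after filterByExpr and TMM scaling, and p-values were adjusted over all 13052 genes tested. The edgeR fit of KO against Het was tried on simulated counts, with changes placed only in genes of higher mean counts. It therefore does not cover genes with few counts at E13, and the other tools and contrasts were not tried this way. Alternatives were DESeq2 1.42.0, limma 3.58.1 (voom with sample quality weights), other scalings and filters, the replicate number as a block, and each library left out. Replicates of a group differed by more than sampling noise (chi-square over degrees of freedom of 16.1 to 239), and all were kept as separate samples. Values in every sample are given for the 25 genes of highest E9 CPM, for those in a pathway or marker list, next to a threshold or at least 10 CPM in dermis, and for a few by role. Of the 36 genes, 2 enter every count and summary but are not reported here by name. The genes and lists were chosen with earlier results of these data known. Motif counts come from 1 window per symbol. PCR reads are not independent molecules, so floors cover counting error only.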

Additional observations from a re-analysis of the deposited data

How the results depend on the processing

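The set of 36 genes grew to 115 with a ratio of 2 and shrank to 13 with a ratio of 8. It numbered 82 when the E13 Het libraries alone set the ratio and 73 with the E13 KO libraries alone, and 38 to 52 with each epidermal library left out in turn. Leaving out libraries can only loosen the rule. These sets therefore held all 36 genes and could not shrink. The genes at 10 CPM in dermis numbered 6 at a level of 20 CPM, and 9 to 10 with each dermal library left out. Genes called over the whole table depended most on the tool. Between KO and Het, DESeq2 called 811 and limma voom 656, against 287; leaving out a library gave 182 to 348, the lowest without KO replicate 1. The block on replicate number called 186 genes and none of the 36, with correlations between same-numbered libraries of -0.05, 0.23 and -0.06, so the numbers were not taken as pairs. Between E13 Het and E9, DESeq2 called 1997, voom 1729 and the fits without a library 782 to 1152; between KO and E9 these were 2172, 2575 and 592 to 1324, the lowest without KO replicate 1. Of the 36 genes, those called higher in KO were 0 to 1 with a library left out (1, Hapln1, without E13 Het replicate 1) and 1 by voom, and those called lower were 1 by DESeq2 (Cyp1b1) and 0 with each library left out; leaving out Het replicate 1 and KO replicate 3 together gave 1 higher and 1 lower. The median log2 fold change of the set ran from -0.15 to 0.78 over 17 alternatives, so it has no settled sign. Of 574 values of single genes under these alternatives, 569 stayed on the same side of the threshold and 5 passed it, while 21 of the 36 genes changed sign under at least 1. Depth limits the genes of few counts, since 23 and 24 of the 36 were at 0 in KO replicate 3 and Het replicate 1. The causes of these differences were not tested.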

Other observations

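The rule was also applied with 1 genotype at a time, which used the low side of that genotype, so the counts are a description. With the E13 Het libraries alone 82 genes met it, and the 36 genes made up 43.9% of them. Over these 82 genes the KO mean had a median of 11.96% of the E9 mean and was under 25% of it for 61. Mest, an imprinted gene of embryonic growth, was the 1 gene at or above its E9 mean in KO, with 1031, 899 and 1845 CPM in KO and 153, 144 and 123 CPM in Het epidermis at E13, against 867, 918 and 924 CPM at E9. Unc5c, a netrin receptor, had 60.3, 49.0 and 41.8 CPM in KO and 2.78, 13.9 and 13.2 CPM in Het epidermis at E13, against 91.2, 65.1 and 101 CPM at E9. With the E13 KO libraries alone 73 genes met the rule, the 36 genes being 49.3% of them. Over the 73 the Het mean had a median of 9.80% of the E9 mean, with 5 genes at or above it. Among the 5 were Trp63, the gene that carries the altered allele, and Tac2, which rested on Het replicate 3 (0, 0.514 and 450.6 CPM). These genes were named after their values were seen.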
